A study of Mus musculus with 2 samples.

Results

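Cells of the islet immune compartment were examined for 35 genes of the cell cycle, taken by symbol from the gene table of the series, which lists 32285 genes in all. The series is 1 sample: islets of 6 to 8 wild-type C57BL/6J male mice were pooled and dissociated, and live Epcam-negative CD45+ cells were sorted and stained with oligonucleotide-tagged antibodies to CD9, a tetraspanin, and CD206, the mannose receptor of macrophages. The same cells were read as an mRNA library and an antibody library of unique molecular identifiers (UMIs, each standing for 1 captured molecule), and all 2237 barcodes were shared by both. No mouse, day or treatment was replicated, so no difference could be set against a spread between replicates, and every interval below (95%) covers counting error alone. A cell was counted as cycling when Mki67, Top2a, Birc5, Cdk1, Ccnb1 and Cenpf together gave at least 5 UMIs, and as a macrophage when C1qa, C1qb and C1qc, which encode the chains of complement C1q, reached 2000 CPM in sum (UMIs of a gene scaled to a fixed total of all UMIs). The 35 genes and both thresholds were set with earlier results of these data known, and a level above a threshold is a range and not a cell type: 56 kept cells lay within 25% of the C1q level, 27 macrophages held 4 UMIs of the 6 genes and 28 held exactly 5.

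A dividing cell passes from growth (G1) through DNA replication (S) and a second gap (G2) to mitosis (M). Replication genes such as the MCM helicase subunits and the enzymes of nucleotide supply are induced by E2F factors at the start of S phase, whereas cyclin B, its kinase Cdk1 and the genes of spindle and kinetochore are switched on later, in large part through CHR and CCAAT promoter elements. Tissue macrophages can renew by local division, and conventional dendritic cells arise from dividing precursors and may divide again in tissue.

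Of the 2175 cells kept, 1792 were macrophages by C1q level and 57 were dendritic cell-like, that is, cells below the C1q level in a cluster in which 20 of 34 dendritic cell markers passed. The median cell held 19348 RNA UMIs (quartiles 13348 and 24739). All 9 macrophage markers other than the C1q genes were at least 2-fold higher in macrophages than in dendritic cell-like and in T-like cells. The dendritic cell-like cluster was named from its own marker lists, so those markers are no separate check of the name. All 8 markers shared by conventional dendritic cells were at least 2-fold higher in dendritic cell-like cells than in macrophages. So were 5 of 9 markers of the cDC1 subset, 5 of 8 of cDC2 and 7 of 9 of migratory dendritic cells. Anxa3 of the migratory list was higher in macrophages (109 against 34.8 CPM), as were Cadm1, Irf8, Batf3 and Sirpa. Flt3, the receptor of dendritic cell precursors, stood at 152 CPM in dendritic cell-like cells and at 1.45 CPM in macrophages. Clusters led by endocrine and endothelial genes were present in spite of the CD45 gate, and their cells are used below only as background.

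The rule marked 118 of the 1792 macrophages as cycling (6.58%, 5.48 to 7.83%), 12 of the 57 dendritic cell-like cells (21.1%, 11.4 to 33.9%) and 9 of the remaining 326 cells (2.76%, 1.27 to 5.18%). Among all 383 cells below the C1q level the share was 5.48% (21 cells, 3.43 to 8.26%). It was 2 of 76 T-like, 1 of 41 NK-like, 2 of 17 monocyte-like, 1 of 42 endocrine-like and 1 of 22 endothelial-like cells, and 0 of 29 B-like cells, where a floor of 3 cells allows a share of up to 10.3% (exact upper bound 11.9%). At full depth dendritic cell-like cells had the highest share, with an interval that did not overlap that of macrophages. Depth differed between classes, with medians of 20200 RNA UMIs in macrophages, 23926 in dendritic cell-like cells, 9069.5 in T-like and 9763 in B-like cells. With each cell thinned to 5000 UMIs and 2 UMIs of the 6 genes required, the shares were 3.95% of 1669 macrophages (3.07 to 5.00%) and 17.6% of 51 dendritic cell-like cells (8.40 to 30.9%). The remaining cells then stood at 4.53% (11 of 243, 2.28 to 7.96%) and all cells below the C1q level at 6.80% (20 of 294, 4.20 to 10.3%), both above macrophages, the reverse of the order at full depth, with intervals that overlapped that of macrophages. Monocyte-like cells then had the highest share, 3 of 16 (18.8%, 4.05 to 45.6%). Thinning left out 123 macrophages and 6 dendritic cell-like cells that were shallower. With Mki67 also left out, the thinned share was 0.839% of macrophages (14 of 1669, 0.459 to 1.40%). It was 9.80% of dendritic cell-like cells (5 of 51, 3.26 to 21.4%) and 3.29% of the remaining cells (8 of 243, 1.43 to 6.38%). All cells below the C1q level stood at 4.42% (13 of 294, 2.38 to 7.44%). Each of these intervals lay above that of macrophages. Monocyte-like cells were then at 0 of 16.

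Most macrophages that met the rule did so through Mki67 alone. Mki67 encodes Ki-67, a protein of the perichromosomal layer that is widely used as a proliferation marker. In 78 of the 118 cycling macrophages it was the only 1 of the 6 genes with a UMI, 24 more held 2 of the genes, and 2, 7, 3 and 4 macrophages held 3, 4, 5 and 6 of them. No other gene of the 6 was the single source of a call. Mki67 gave 68.6% of the UMIs of the 6 genes in cycling macrophages, and Top2a, the topoisomerase that untangles replicated DNA, gave 22.1%. The cells were therefore split, after these values had been seen, into multi-gene cycling cells with at least 3 of the 6 genes and few-gene cycling cells with 1 or 2.

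Few-gene macrophages, held by the split to 1 or 2 of the 6 genes, had their rule UMIs almost wholly from Mki67 and Top2a. In their 102 cells the sums were 884 UMIs of Mki67 and 54 of Top2a, but 1 of Cdk1, the mitotic kinase, 1 of Cenpf, a kinetochore protein, and 0 of both Birc5 (survivin, of the chromosomal passenger complex) and Ccnb1 (cyclin B1). In the 16 multi-gene macrophages Top2a led with 42.7% of the UMIs of the 6 genes, and Mki67 gave 36.4%. Counted this way, multi-gene cells were 0.893% of macrophages (16 of 1792, 0.511 to 1.45%), 10.5% of dendritic cell-like cells (6 of 57, 3.96 to 21.5%) and 1.23% of the remaining 326 cells (4 cells, 0.335 to 3.11%). Both calls put dendritic cell-like cells above macrophages. With Mki67 left out of the rule, 1.12% of macrophages and 10.5% of dendritic cell-like cells held 5 UMIs.

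**Figure D1:**
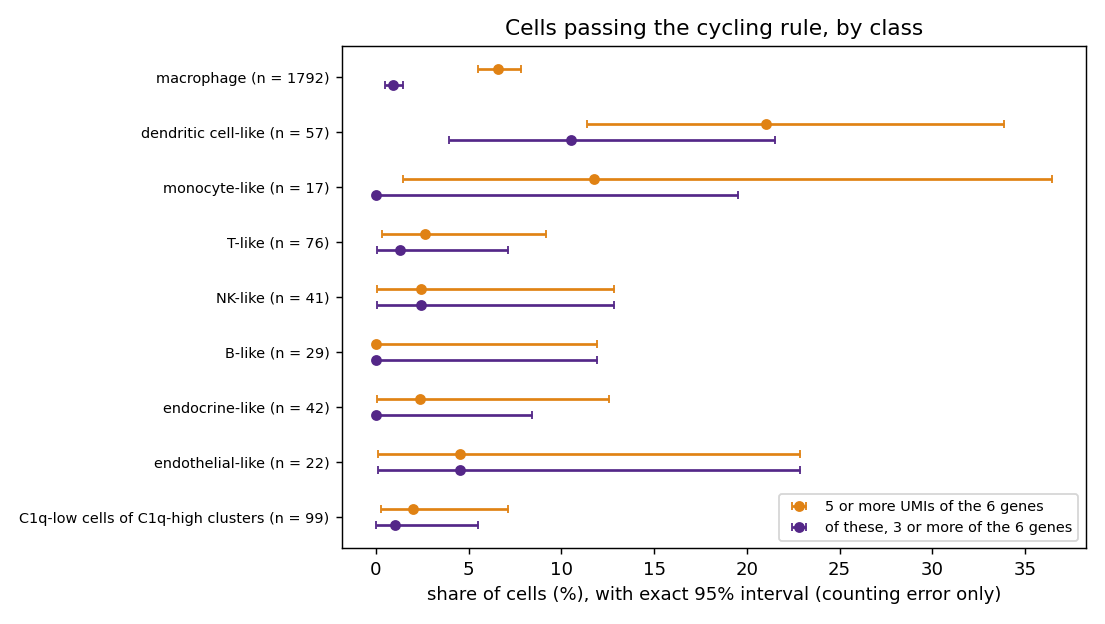
Share of cells meeting the cycling rule in 9 classes (horizontal axis, %, points with exact 95% intervals for counting error). Orange points are all cells with 5 or more UMIs of the 6 genes, and purple points those that also hold 3 or more of the genes; macrophages go from 6.58 to 0.893% and dendritic cell-like cells from 21.1 to 10.5%.

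The 29 members that the rule did not use separated these cells. Multi-gene macrophages held UMIs of a median of 20.5 of the 29 (9 to 29), few-gene macrophages of 3 (0 to 15) and macrophages under 5 UMIs of 3 (0 to 10). Depth had the same order, with medians of 35034, 28210.5 and 19708 RNA UMIs. At 5000 UMIs per cell the medians were 7, 1 and 1 members. The 6 multi-gene dendritic cell-like cells held 24 of the 29 (17 to 25), against a median of 3 in the other 51. No multi-gene macrophage fell below 9 members, and the highest few-gene macrophage held 15.

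**Figure D2:**
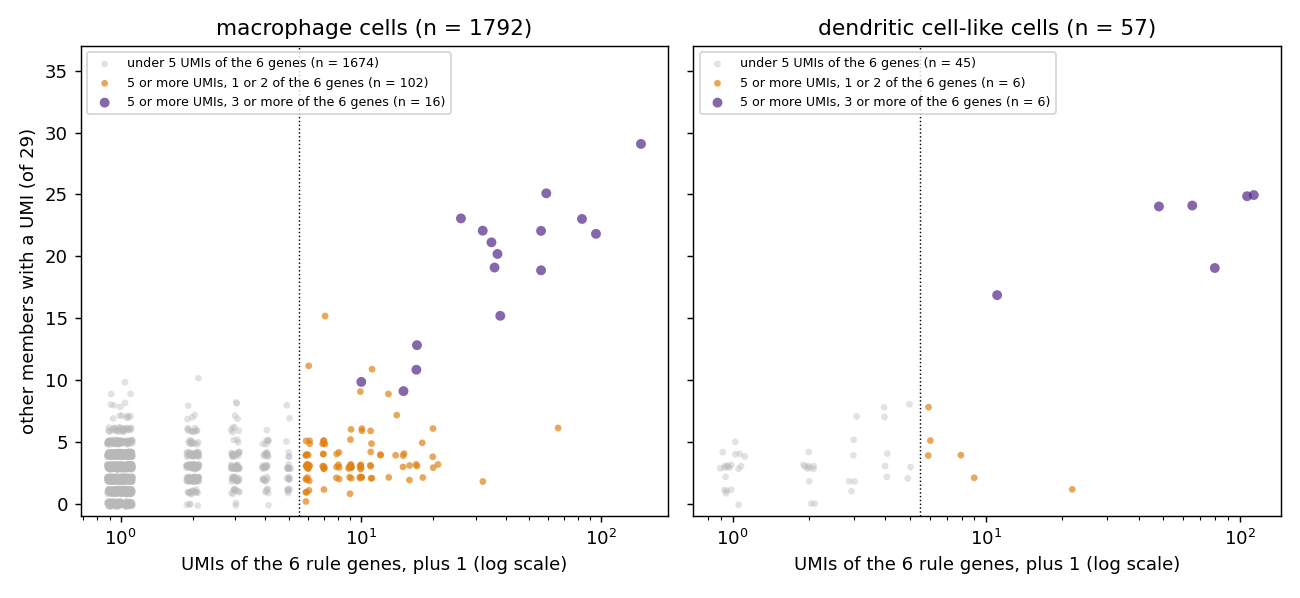
UMIs of the 6 rule genes plus 1 (horizontal axis, log scale) against the number of the other 29 members with a UMI (vertical axis), 1 point per cell, for 1792 macrophages (left) and 57 dendritic cell-like cells (right); the dotted line marks the rule. Multi-gene cells (purple) lie at 9 to 29 members in macrophages, while few-gene cells (orange) lie mostly at the height of the grey cells under 5 UMIs.

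The replication members were high together in multi-gene macrophages. Pclaf, which encodes a small factor bound to the PCNA clamp, stood at 218 CPM in them, 3.18 in few-gene macrophages and 0.429 in macrophages under 5 UMIs, the last from 14 UMIs over 1674 cells. It was found in 14 of the 16 multi-gene cells, with 40 UMIs in the highest. Rrm2, the regulated subunit of ribonucleotide reductase, stood at 58.0, 0.318 and 0.123 CPM in the same order, and its partner Rrm1 at 84.0, 4.45 and 3.98 CPM. Few-gene macrophages thus sat with the cells under 5 UMIs for Rrm1 (ratio 1.12, 0.594 to 1.94). Their Rrm2 value was 1 UMI, too few to place them. Against the cells under 5 UMIs, Pclaf was 7.40-fold higher in few-gene macrophages (2.94 to 17.9), with 8 of its 10 UMIs in 1 cell. The MCM helicase subunit Mcm5 was 2.10-fold higher (1.14 to 3.62). The other 7 S phase members with enough UMIs, Rrm1 among them, were neither higher nor lower by 1.5-fold. Tyms (thymidylate synthase) was 17.0-fold higher in multi-gene macrophages than in those under 5 UMIs (11.9 to 23.9) and Tk1 (thymidine kinase) 14.2-fold (7.93 to 24.4). The 4 MCM helicase subunits were 7.25-fold (Mcm6) to 30.9-fold (Mcm5) higher. Pcna, the sliding clamp of replication and repair, was the exception at 229 against 162 CPM, 1.41-fold (1.19 to 1.66), and it was 138 CPM in few-gene macrophages. A UMI of Pcna was found in 78.9% of macrophages under 5 UMIs, and 88.4% of all its UMIs lay in cells outside the rule.

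Mitotic members were likewise high in multi-gene macrophages, while in few-gene macrophages they were mixed. Ube2c, the ubiquitin-conjugating enzyme of the anaphase-promoting complex, stood at 90.1 CPM in multi-gene macrophages, 0.953 in few-gene macrophages and 0.551 in those under 5 UMIs. Its few-gene value was 3 UMIs in 1 cell. The checkpoint kinase Bub1 was 206-fold higher in multi-gene macrophages than in those under 5 UMIs (88.5 to 558), the spindle motor Kif11 93.0-fold (48.0 to 187), the spindle protein Nusap1 150-fold (87.6 to 266) and the kinetochore scaffold Knl1 88.3-fold (51.1 to 156). Cyclin A2 (Ccna2) was 199-fold higher (64.3 to 819) and cyclin B2 (Ccnb2) 33.5-fold (22.2 to 50.05). The kinetochore subunit Spc25 had the lowest mitotic ratio, 10.7-fold (5.21 to 20.2), and the kinase Aurka was 13.4-fold higher (6.20 to 26.5). Stmn1, a microtubule-destabilising protein, was 45.03-fold higher (39.8 to 51.0) and the chromatin protein Hmgb2 10.1-fold (9.37 to 10.9). Among the rest, Cdca8, a chromosomal passenger subunit, was 81.9-fold higher, the mitotic motor Cenpe 46.3-fold, the spindle assembly factor Tpx2 15.7-fold, the checkpoint kinase Bub1b 12.8-fold and the cytokinesis regulator Racgap1 11.0-fold. Of the rule genes, whose values here are fixed in part by the choice of cells, Mki67 was found in all 16, Top2a in 15 and Ccnb1 in 6, with 11 of the 19 Ccnb1 UMIs in 1 cell. Anln, a cytokinesis scaffold, was 18.7-fold higher from 12 UMIs in the multi-gene cells (8.77 to 37.3). In few-gene macrophages Knl1 was 4.71-fold (1.99 to 10.4) and Tpx2 2.17-fold higher (1.42 to 3.24) than in those under 5 UMIs. Of 15 G2/M members with 20 UMIs in both sums together, rule genes included, 7 were at least 1.5-fold higher there. A further 4 were lower and 4 neither. Without their highest few-gene cell, 4 of the 7 stayed at 1.5-fold.

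In counts, 26 of the 29 members outside the rule were at least 1.5-fold higher in multi-gene macrophages than in macrophages under 5 UMIs, Pcna was not, and Aurkb and Cdc20 fell under the minimum of 20 UMIs in both sums together. Of all 12745 genes with that minimum, 27.9% were at least 1.5-fold higher and 23.4% lower. The median log2 ratio was 3.96 over the 10 S phase members, none of which is a rule gene, beside 0.34 over all genes. Members that were rare outside the multi-gene cells, such as Bub1 with 29 against 7 UMIs, reached the minimum through those cells, so the count of passing members is a description only. Each of the 26 kept a ratio of 1.5 or more without the multi-gene cell that held most of its UMIs. For few-gene macrophages against those under 5 UMIs, 8 of the 23 passing members outside the rule were at least 1.5-fold higher, 3 were lower and 12 were neither, where 8.87% of 12835 genes were higher and 15.3% lower. Only 3 of the 8 stayed at 1.5-fold without their highest cell. Of the 3 lower members, Aurka and Anln had intervals that included 1. For the third, Racgap1, 1 cell under 5 UMIs of the rule genes held 133 of the 159 UMIs of the reference. Taking all 118 cycling macrophages together gave 26 of 27 passing members higher than in the other macrophages (10.8% of 12909 genes), a count that mixes both kinds of cycling cell.

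**Figure D3:**
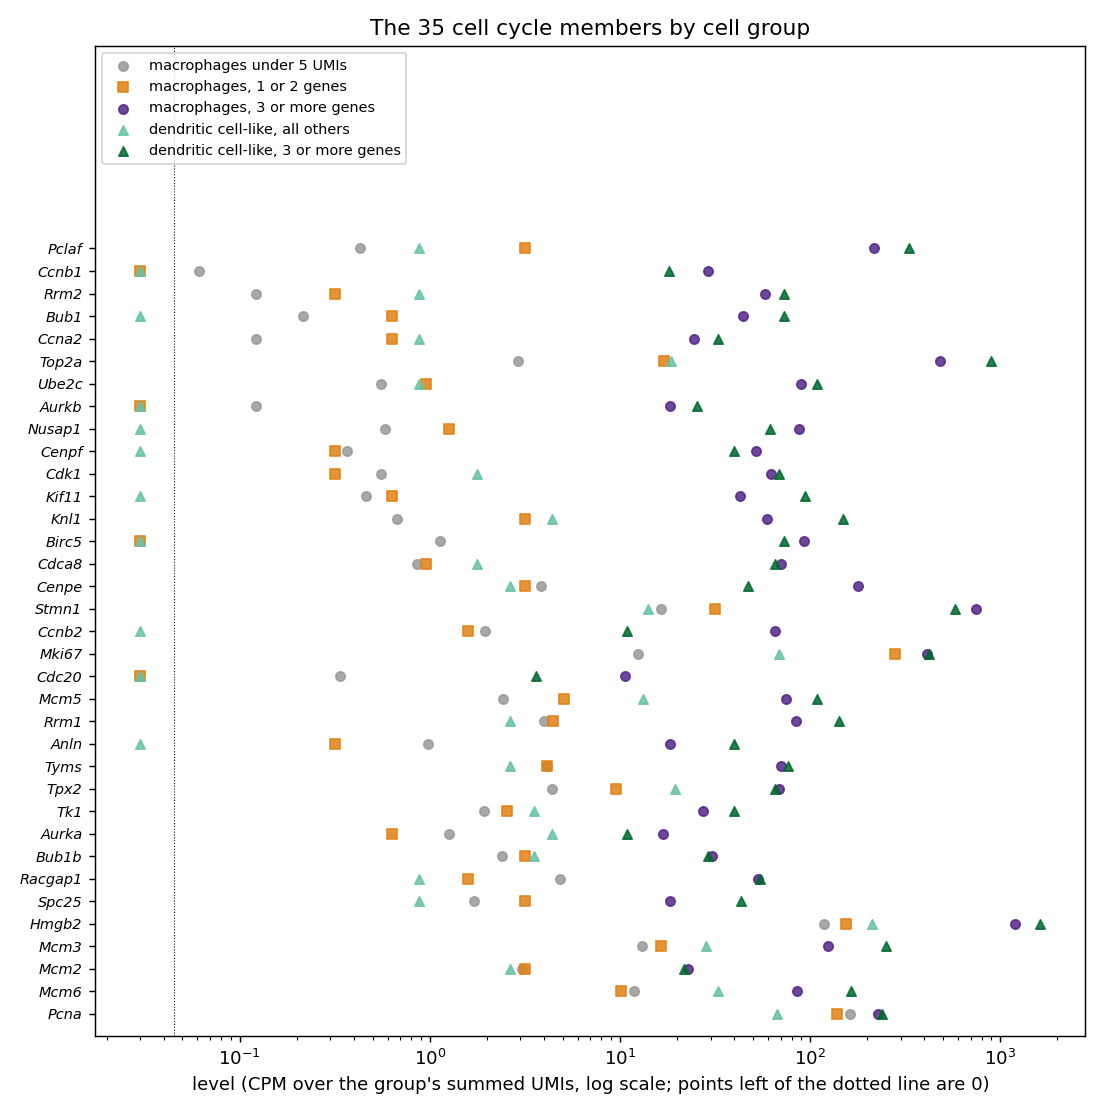
Level of each of the 35 members (horizontal axis, CPM over the summed UMIs of a group, log scale; points left of the dotted line are 0) in 3 groups of macrophages and 2 of dendritic cell-like cells, ordered by the ratio of multi-gene macrophages (purple) to macrophages under 5 UMIs (grey). Few-gene macrophages (orange squares) lie mostly near the grey points, with Mki67 the farthest from them (281 against 12.5 CPM), and the multi-gene groups of both cell types (purple points, dark green triangles) lie to the right of the other dendritic cell-like cells (light green triangles).

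Upstream sequence of 31 of the 35 members was matched by symbol in a RefSeq table of GRCm38.p6. In the 200 bases before the annotated start, 25 of the 31 held a CCAAT box (CCAAT on either strand), as did 29.3% of the 32851 promoters in the table. A CHR element (TTTGAA or TTCGAA on either strand) lay in 8 of 20 G2/M members and 1 of 10 S phase members, against 13.4% of all promoters, and an E2F site (TTTCCCGC, TTTCGCGC, TTTGCCGC or TTTGGCGC on either strand) in 3 of the 31, against 1.58%. A match describes letters and not binding. Overlapping matches were counted separately, as for a facing pair of CCAAT boxes in Ube2c. The stretches below are those of Mki67, the member that alone marked most cycling macrophages, of Top2a, Birc5 and Ube2c, which had 75.7%, 69.6% and 82.4% of their UMIs in the 26 multi-gene cells of all classes, and of the S phase members Pclaf and Rrm2. Capitals mark matches of any of the 3 motif sets, and bases inside the outermost annotated start of the gene (71 for Mki67, 10 for Top2a) were left off.
Mki67, GRCm38.p6, chr7:135716451-135716579, minus strand: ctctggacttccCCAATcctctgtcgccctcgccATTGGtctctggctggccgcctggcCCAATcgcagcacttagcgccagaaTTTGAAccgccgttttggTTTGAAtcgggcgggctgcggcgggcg
Top2a, GRCm38.p6, chr11:99024200-99024389, minus strand: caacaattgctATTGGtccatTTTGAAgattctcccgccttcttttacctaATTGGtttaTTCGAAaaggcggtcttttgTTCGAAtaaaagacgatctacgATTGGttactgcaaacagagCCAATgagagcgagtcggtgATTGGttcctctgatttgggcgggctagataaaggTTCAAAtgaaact
Birc5, GRCm38.p6, chr11:117849037-117849236, plus strand: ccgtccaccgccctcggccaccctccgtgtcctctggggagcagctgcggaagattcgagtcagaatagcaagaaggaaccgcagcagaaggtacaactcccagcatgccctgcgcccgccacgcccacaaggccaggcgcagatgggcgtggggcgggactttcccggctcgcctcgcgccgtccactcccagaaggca
Ube2c, GRCm38.p6, chr2:164769729-164769928, plus strand: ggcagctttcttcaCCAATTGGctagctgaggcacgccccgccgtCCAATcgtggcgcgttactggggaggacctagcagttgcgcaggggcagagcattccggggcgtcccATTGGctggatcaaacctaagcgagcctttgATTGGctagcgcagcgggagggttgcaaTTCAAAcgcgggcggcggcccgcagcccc
Pclaf, GRCm38.p6, chr9:65890123-65890322, plus strand: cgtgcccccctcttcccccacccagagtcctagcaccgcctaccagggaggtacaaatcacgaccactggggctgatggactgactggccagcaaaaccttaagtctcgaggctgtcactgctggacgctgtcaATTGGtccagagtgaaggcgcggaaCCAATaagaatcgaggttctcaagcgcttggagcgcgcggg
Rrm2, GRCm38.p6, chr12:24708054-24708253, plus strand: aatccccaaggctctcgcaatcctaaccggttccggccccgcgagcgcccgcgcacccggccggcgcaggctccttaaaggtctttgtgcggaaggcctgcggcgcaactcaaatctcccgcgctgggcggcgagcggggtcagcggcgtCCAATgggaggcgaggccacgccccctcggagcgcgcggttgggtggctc

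Mki67 and Top2a both held CCAAT boxes and CHR elements in these stretches, 3 and 2 in Mki67 and 5 and 4 in Top2a, whereas Birc5 held no match of the 3 sets. Ube2c held 5 CCAAT boxes and 1 CHR element, and Pclaf and Rrm2 held 2 and 1 CCAAT boxes.

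Macrophages with Mki67 UMIs extended well below the rule. A UMI of Mki67 was found in 18.7% of macrophages (335 of 1792, 16.9 to 20.6%) and in 50.9% of dendritic cell-like cells (29 of 57, 37.3 to 64.4%). As a background for free RNA, in types where few cells were expected to divide but which are no strict negative control, the share was 3.45% of 29 B-like cells at a median of 9763 UMIs and 7.14% of 42 endocrine-like cells at 21779 UMIs, where the interval (1.498 to 19.5%) reached the macrophage share. Among the other classes, monocyte-like cells lay above macrophages at 23.5% (4 of 17, 6.81 to 49.9%). The share was 10.1% of the 99 C1q-low cells of C1q-high clusters, at a median of only 2098 UMIs. It was 7.89% of 76 T-like, 7.32% of 41 NK-like and 4.55% of 22 endothelial-like cells. The summed Mki67 level was 412 CPM in multi-gene, 281 in few-gene and 12.5 in the other macrophages. Few-gene macrophages held up to 65 UMIs of Mki67, in a cell of 99470 RNA UMIs. Of all Mki67 UMIs in kept cells, 50.4% lay in few-gene cells and 25.4% in the 26 multi-gene cells, while Pclaf had 91.3%, Rrm2 90.2% and Ccnb1 90.0% of theirs in the 26.

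Few-gene macrophages were unevenly spread over the macrophage clusters, which had been made without 147 cell cycle genes. They made up 15.2% of the 211 macrophages of a cluster led by Gpnmb, Pltp and Mefv (10.6 to 20.7%), 10.9% of 220 in a cluster led by Gdf15 and Folr2 (7.12 to 15.8%) and 6.94% of 317 in a cluster led by the interferon-induced Ifit3 and Cmpk2 (4.40 to 10.3%). In the clusters led by Hspa1b, by Myo1f, by Cxcl1 and by Itgb8 the shares were 2.36%, 2.97%, 1.53% and 1.67%. Median depth was 22564, 23907 and 22312 UMIs in the first 3 and 17936 to 21098.5 in the last 4. The 16 multi-gene macrophages were too few to compare by cluster, with 4, 3, 4 and 2 cells in the clusters led by Ifit3, Gpnmb, Myo1f and Itgb8, 1 in a cluster of low depth, 2 in the dendritic cell-like cluster and 0 in the others, among them those led by Gdf15, Hspa1b and Cxcl1.

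Genes outside the cycle also differed between few-gene macrophages and those under 5 UMIs. Among the 10 leading genes, Clec4e, the Mincle receptor, stood at 491 against 172 CPM, Acod1, which makes itaconate, at 296 against 105, and Pdpn (podoplanin) at 40.6 against 11.2. Some dendritic cell markers were higher too: 6 of 8 cDC2 markers, 6 of 8 passing markers of migratory dendritic cells, 5 of 8 shared markers and 1 of 8 passing cDC1 markers reached 1.5-fold, where 8.87% of all genes did, with the chemokine receptor Ccr7 at 65.1 against 15.04 CPM and Ccl22 at 35.2 against 12.3. Of the 102 few-gene macrophages 2 lay in the dendritic cell-like cluster. The part of these genes in the Mki67 result was not tested.

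Multi-gene macrophages met the C1q level by definition, and other macrophage markers were mixed in them. C1qa stood at 2296 CPM in them and at 2598 in macrophages under 5 UMIs. The summed level of the 9 other macrophage markers was 6449 against 12320 CPM, most of the difference lying in Apoe at 4492 against 9080, with Adgre1 (F4/80) at 174 against 367 and Csf1r at 258 against 334. Cd68 was level at 542 against 551 CPM, and Fcgr1 (93.1 against 62.7) and Mertk (16.8 against 15.4) were not lower. Of 12 macrophage markers with the C1q genes, 4 were lower by 1.5-fold, where 23.4% of all genes were, and none was at 0. The summed level of the 8 shared dendritic cell markers was 281 against 120 CPM. Among the 16 were 2 cells of the dendritic cell-like cluster, and 1 of them, with 119374 RNA UMIs, held 38 UMIs of Ly75, 12 of Xcr1 and 8 of Flt3 beside 18 of Csf1r. Both passed the doublet score. They held 8 and 2 of the 10 Flt3 UMIs of the 16 cells, and 3 and 2 of the 6 UMIs of Zbtb46. Ciita gave 162 of the 281 CPM, against 78.2 CPM in macrophages under 5 UMIs. The part of the 2 cells in the other marker levels was not tested. T cell markers were mixed, with 0 UMIs of Trac, Trbc1, Trbc2, Cd3e and Cd3g and 5 of Cd4 in the 16 cells. Of 10 listed T cell markers, 6 had enough UMIs to compare with macrophages under 5 UMIs. Among them 4 were at least 1.5-fold lower in multi-gene macrophages and 2 at least 1.5-fold higher.

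Other cell cycle genes, from lists that do not include the 35, followed the members. In multi-gene macrophages, where 27.9% of all genes were higher and 23.4% lower, 28 of 29 passing genes of origin licensing and replication were at least 1.5-fold higher than in macrophages under 5 UMIs, 28 of 29 further mitotic genes and 7 of 7 genes of replication-linked repair, with median log2 ratios of 3.10, 4.81 and 3.59. Clspn, which relays the replication checkpoint, was 84.5-fold higher (49.2 to 148), the chromokinesin Kif4 159-fold (89.1 to 298) and the condensin subunit Ncapg 299-fold from 3 UMIs in the reference (87.3 to 1585). Genes that were rare outside the multi-gene cells, such as Ncapg, reached the minimum through those cells. The counts and medians of these lists are therefore a description only. In few-gene macrophages, where 8.87% of all genes were higher and 15.3% lower, 7 of 29 licensing genes were higher and 5 lower, and 4 of 21 mitotic genes were higher and 2 lower. G1 cyclins and kinases were mixed: in multi-gene macrophages 5 of 9 were higher, led by the S phase cyclin Ccne2 at 14.8-fold (8.76 to 24.1), and Ccnd2, a D-type cyclin, was 2.08-fold higher (1.63 to 2.61). Of 14 brakes on the cycle 5 were higher and 4 lower, shares near those of all genes, with Rbl1 (p107) at 65.7 against 11.9 CPM and Rb1 at 30.5 against 63.3. The factors E2f8 and Mybl2 were 39.3-fold (18.6 to 81.7) and 33.2-fold higher (13.3 to 79.1).

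Dendritic cell-like cells had higher summed levels of nearly every member than macrophages. Of the 34 members with 20 UMIs, 32 were at least 1.5-fold higher, where 29% of 13050 genes were higher and 27.7% lower; Pcna was lower at 101 against 161 CPM, Ccnb2 stood at 2.13 against 3.07 CPM, and Cdc20 had too few UMIs at 0.710 against 0.494 CPM. Knl1 was 16.8-fold higher (11.3 to 24.6), Kif11 14.95-fold (8.86 to 24.8), Top2a 14.9-fold (12.8 to 17.4) and Pclaf 14.3-fold (10.9 to 18.5). Mki67 had a smaller ratio, 138 against 42.9 CPM or 3.21-fold (2.75 to 3.73). In all, 28 of the 32 stayed at 1.5-fold without the dendritic cell-like cell that held most of the UMIs. Outside the members, Kit was 151 against 1.32 CPM and Ccnd2 319 against 59.8, while Cdk6, the G1 kinase, was lower at 173 against 552 CPM.

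The 6 multi-gene dendritic cell-like cells stood well above the other 51 for these members. Several members passed the minimum of UMIs only through the 6 cells, among them Pclaf with 91 against 1 UMI, Kif11 with 26 against 0 and Bub1 with 20 against 0, so their direction was fixed and no count is drawn from them. Rrm1 at 142 against 2.65 CPM (39 against 3 UMIs) and Stmn1 at 581 against 14.1 (160 against 16 UMIs) likewise passed through the 6 cells. Mcm3, with 32 UMIs in the other 51, stood at 251 against 28.2 CPM.

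With multi-gene cells taken out of both groups the pattern was far thinner. Of 27 members that still passed, 13 were at least 1.5-fold higher in dendritic cell-like cells and 9 lower, where 25.7% of 12943 genes were higher and 30% lower. The interval lay apart from 1 for 9 of the 13 and, among the 9, for Pcna only (67.1 against 160 CPM, ratio 0.419, 0.330 to 0.525), while 4 of the 9 had 0 UMIs in the dendritic cell-like cells and intervals that included 1. Pclaf was 0.883 against 0.671 CPM, from 1 UMI in the dendritic cell-like cells (ratio 1.32, 0.0320 to 8.07). Top2a at 18.5 against 4.16 CPM, Mcm5 at 13.2 against 2.65 CPM and Tpx2, a spindle assembly factor, at 19.4 against 4.83 CPM remained higher, with ratios of 4.45 (2.68 to 7.06), 4.99 (2.69 to 8.65) and 4.02 (2.45 to 6.28). A set of 10 members, among them Birc5, Bub1, Kif11, Ccnb2 and Nusap1, had 0 UMIs in the 51 dendritic cell-like cells, which together held 1132941 RNA UMIs.

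Between the multi-gene cells of both types the members were closer. Of 32 passing members, 10 were at least 1.5-fold higher in the 6 dendritic cell-like cells than in the 16 macrophages, 3 were lower and 19 were neither, where 28.7% of 6048 genes were higher and 23.2% lower. Only 3 of the 10 stayed at 1.5-fold without the dendritic cell-like cell that held most of the UMIs. Mki67 was 421 against 412 CPM (ratio 1.02, 0.815 to 1.27), and Top2a 901 against 484 CPM (1.86, 1.57 to 2.20). Ccnb2 was 10.9 against 65.7 CPM (0.166, 0.0329 to 0.518) and the mitotic motor Cenpe 47.2 against 179 CPM (0.264, 0.137 to 0.470). A single macrophage of 119374 RNA UMIs held 20 of the 43 Ccnb2 UMIs and 52 of the 117 Cenpe UMIs of the 16.

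The phase pattern was read from the 9 S phase members other than Pcna against the 23 G2/M members. S phase members gave 27.4% of these UMIs in multi-gene macrophages (501 of them, 25.3 to 29.5%) and 33.1% in multi-gene dendritic cell-like cells (332, 30.2 to 36.1%). Single cells ranged from 3.85 to 55.6% in macrophages and from 18.2 to 67.6% in dendritic cell-like cells, so the spread between cells was wider than the gap between types. S phase UMIs outnumbered G2/M UMIs in 1 of 16 macrophages and in 2 of 6 dendritic cell-like cells. At the S end a dendritic cell-like cell held 48 S phase and 23 G2/M UMIs with 15 of Pclaf and 0 of Ccnb1. At the mitotic end a macrophage held 9 S phase and 193 G2/M UMIs, with 11 of Ccnb1 and 16 of Ube2c. The 6 genes that chose the cells all belong to the G2/M side of this count, so the shares depend on that choice.

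**Figure D4:**
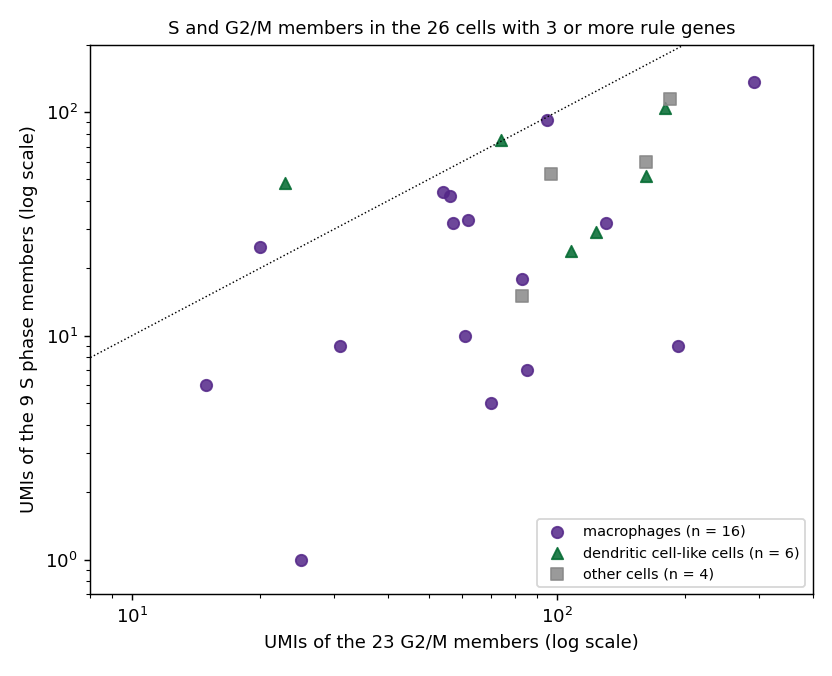
UMIs of the 23 G2/M members (horizontal axis, log scale) against UMIs of the 9 S phase members (vertical axis, log scale) in the 26 multi-gene cells, 16 macrophages, 6 dendritic cell-like cells and 4 others; the dotted line marks equal counts. Most cells lie below the line, with 1 macrophage and 2 dendritic cell-like cells above it.

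Over all 118 macrophages that met the rule, S phase members gave 28.1% of UMIs when set against the 6 rule genes alone (26.3 to 29.96%), and in the 12 dendritic cell-like cells 42.6% (39.2 to 46.1%). In the multi-gene cells alone the values were 40.3% (37.6 to 43.1%) and 44.2% (40.6 to 47.8%), so that the intervals then met. Few-gene macrophages gave 14.2% (12.2 to 16.4%), where Mki67 filled most of the denominator. S phase UMIs were also found without the 6 genes: 38 macrophages that were not multi-gene held 5 or more S phase UMIs, 20 of them with no UMI of the 6 genes. Only 6 of the 38 held 5 or more of the 9 S phase members, and 2 held 7, with 12 and 22 S phase UMIs beside 10 and 6 UMIs of the rule genes. In dendritic cell-like cells 5 such cells were found, none with 5 or more S phase members.

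CD9 antibody was higher on cycling macrophages than on others before depth was matched. The median was 1796 CD9 UMIs (quartiles 530.75 and 5047.5) in the 118 cycling macrophages and 483.5 (71 and 1991.5) in the other 1674, and the ratio of means was 2.25. Since macrophages with more CD9 also held more RNA UMIs (14615 at the median in the lowest decile of CD9 and 26216 in the highest), each cycling cell was set against other macrophages of its depth decile, which gave 1.31 (1.31 to 1.32). Above the median of their decile lay 69 of the 118 cells (58.5%, 49.0 to 67.5%), an interval that includes 50%. In few-gene macrophages the matched ratio was 1.35 (59 of 102 above), and within clusters it was 1.33 (12 of 22 above) in the cluster led by Ifit3, 1.46 (13 of 24) in that led by Gdf15 and 0.987 (16 of 32) in that led by Gpnmb. In multi-gene macrophages the ratio was 1.08 (9 of 16 above), and without the 2 cells of the dendritic cell-like cluster 0.981 (8 of 14). Their CD9 counts ran from 23 to 12206 UMIs, so multi-gene macrophages were found at both ends of the CD9 range.

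Along CD9 itself, Mki67 tended to be higher at high CD9, unevenly. Macrophages were put in deciles of CD9 antibody without matching for depth. From the lowest to the highest decile Mki67 stood at 21.2, 7.22, 20.7, 24.9, 36.1, 45.1, 45.9, 26.7, 59.0 and 93.3 CPM, so that the second decile lay below the first and the eighth below the seventh. Top2a stood at 16.7 CPM in the lowest decile, at 1.85 to 22.7 in those between and at 28.0 in the highest. For Stmn1 the values were 22.4, 15.7 to 51.2 and 52.2 CPM. The median was 23 CD9 UMIs in the lowest decile and 6842 in the highest. The highest decile held 28 few-gene and 4 multi-gene macrophages and the lowest 4 and 2. Pclaf, the only S phase member read this way, stood at 10.8, 8.57 and 11.0 CPM in the fifth, the ninth and the highest decile, which held 3, 4 and 4 multi-gene cells, and at 0.315 to 2.40 CPM in the others.

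CD206 antibody gave no stable difference. The median was 19 UMIs in cycling macrophages and 8 in the others, but the matched ratio of means was 0.924 (0.899 to 0.9503), while 70 of 118 cells (59.3%, 49.9 to 68.3%) lay above the median of their decile. A single few-gene macrophage with 1966 CD206 UMIs held 39.1% of the CD206 UMIs of the 118. Without it the ratio in few-gene macrophages went from 1.02 to 0.586, with 61 of 101 still above their decile's median. In multi-gene macrophages the ratio was 0.496 (10 of 16 above). Mean and rank thus pointed in opposite directions, the reference deciles also holding single cells of very high CD206, up to 6365 UMIs. Dendritic cell-like cells had little CD206, with medians of 1.5, 3 and 3 UMIs in multi-gene, few-gene and other cells, and their CD9 medians were 1848.5, 1768 and 739 at median RNA depths of 46574, 27038 and 22415 UMIs.

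**Figure D5:**
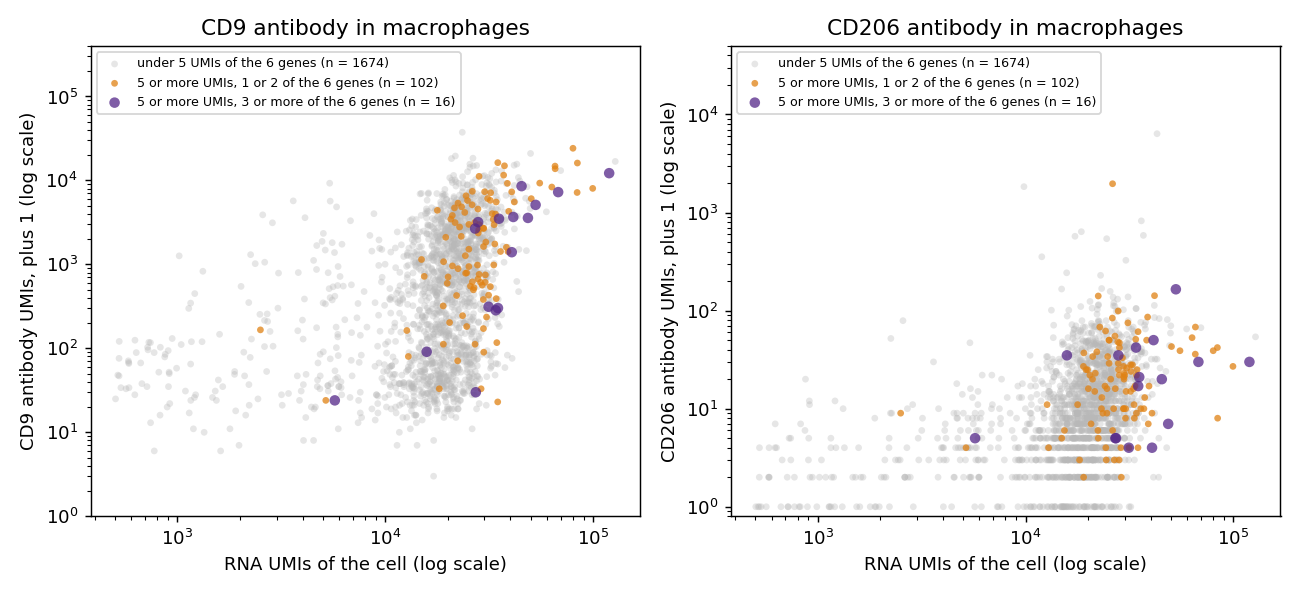
RNA UMIs per macrophage (horizontal axis, log scale) against CD9 (left) and CD206 (right) antibody UMIs plus 1 (vertical axis, log scale), 1 point per cell. Few-gene (orange, n = 102) and multi-gene macrophages (purple, n = 16) sit toward high RNA content, at medians of 28210.5 and 35034 UMIs, and spread over the antibody range of the grey cells.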

How the data were processed

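The deposited matrix holds raw UMI counts for each barcode, by gene and by antibody tag. Per the file headers it came from Cell Ranger 8.0.1, and per the submitters' processing notes from build mm10; the sources used here do not give the rule for keeping barcodes. Barcodes under 200 genes or over 10% mitochondrial UMIs were dropped, leaving 2215 of 2237. Scrublet (scanpy 1.11.5) marked 7 cells (0.316%) by its own threshold, too few to be trusted, so the 40 highest scores (1.81%) were removed; 6 of these met the cycling rule and 2 were multi-gene macrophages. Clusters came from 2000 variable genes without 147 cell cycle genes, 30 components, 15 neighbours and Leiden at resolution 1 (leidenalg 0.10.2), and were named "X-like" from marker lists: a marker passed with a UMI in 25% of cells and 2-fold higher CPM.

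Levels are UMIs summed over cells and scaled to the sum's total (CPM). Shares carry exact Clopper-Pearson, levels exact Poisson and ratios exact conditional binomial 95% intervals (scipy 1.17.1), all for counting error only. No test was run, since there is 1 sample. A gene counted as higher or lower at 1.5-fold with at least 20 UMIs in both sums together. The ratio step was tested on simulated counts. The 35 members could all be named; other lists gave up to 4 genes a direction, ranked on the bound of the interval closest to 1, and the whole table gave its 10 leading genes a direction (outside the cycle lists, with no cell above 25% of the higher sum) for cycling against other macrophages; that rule was carried over to the multi-gene and few-gene comparisons, and C1qa, Csf1r and Cd3e named, after their values were seen. Members and lists were chosen with earlier results of these data known. Alternatives varied the filters on cells, doublets, C1q level, UMI threshold, thinning, clustering, minimum UMIs and depth matching. The split at 3 of 6 genes, the rule without Mki67 and the removal of macrophages in the dendritic cell-like cluster were added after seeing the data.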

Additional observations from a re-analysis of the deposited data

How the results depend on the processing

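No paired analysis was possible because the series is 1 sample with no replicate groups. Of 94 values under alternatives, 54 stayed within their interval or within 1.5 times the count, 36 moved and 4 changed direction. The cycling share of macrophages was 10.5% at 3 UMIs, 2.46% at 10 UMIs, 3.95% thinned, 2.23% with at least 2 of the 6 genes, 0.893% with at least 3 and 1.12% without Mki67. That of cells below the C1q level was 10.2% at 3 UMIs, 3.39% both at 10 UMIs and with 2 genes, 2.61% with 3 genes and 2.87% without Mki67, and that of dendritic cell-like cells 35.1% at 3 UMIs and 10.5% both with 3 genes and without Mki67. Dendritic cell-like cells stayed above macrophages in each of these. The S phase share against the 6 genes was 24.7% at a C1q level of 4000 CPM, 31.6% at 10 UMIs, 30.1% thinned, 37.4% with 2 genes, 40.3% with 3, 39.7% without Mki67 and 25.6% without macrophages of the dendritic cell-like cluster. The CD9 ratio was 1.30 at 1000 CPM, 1.30 at 4000 CPM, 1.30 at 3 UMIs, 1.40 at 10 UMIs, 1.07 thinned, 2.25 unmatched, 1.36 per RNA UMI, 1.19 with 2 genes and 1.26 without the dendritic cell-like cluster, but 0.935 with 3 genes (all other macrophages as reference) and 0.860 without Mki67, so its direction turned on the rule. The CD206 ratio was 0.868 at 3 UMIs, 0.546 at 10 UMIs, 0.539 thinned, 0.538 with 2 genes, 0.510 with 3 and 0.502 without Mki67, but 1.90 unmatched and 1.15 per RNA UMI. The causes were not tested. Counts of members at 1.5-fold stayed within 1.5 times of 32 and 26. With 26 multi-gene cells in all, class differences among them rest on few cells, and intervals cover neither mice nor days.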

Other observations

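The 10 genes outside the lists whose levels went most with the summed members over the 2175 kept cells were led by the replication-dependent histones Hist1h3c (Pearson's r = 0.75 on log2(1 + CPM), UMIs in 25 cells), Hist1h1b (0.60, 42 cells) and Hist1h2ab (0.59, 23 cells), followed by Melk, a mitotic kinase (0.58), Kntc1 (0.56), Stil, a centriole protein (0.55), and Dtl (0.55). All cells share 1 library, and the correlation rests on the few multi-gene cells, so it is given as a description. Among all genes outside the cell cycle lists, the abscission factor Cep55 (35.1 against 0.521 CPM) and the formin Diaph3 (145 against 6.01 CPM) were among the 10 leading genes higher in multi-gene macrophages than in macrophages under 5 UMIs. Among the 10 leading genes that were lower there were Hspb1 at 36.6 against 793 CPM, Hspa1b at 111 against 1162, the chemokines Cxcl1 at 1.53 against 132 and Cxcl2 at 392 against 3634, and Il12b at 9.16 against 149 CPM. A single multi-gene cell held 58.3%, 67.1% and 83.3% of the UMIs of the 16 for Hspb1, Hspa1b and Il12b.

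Some members peaked outside cycling cells. The highest cell was multi-gene for 30 of the 35 members. Racgap1, which acts in cytokinesis, had 133 of its 258 UMIs (51.6%) in 1 macrophage of 27781 RNA UMIs that was under the rule. Without its highest cell the level of Racgap1 in macrophages under 5 UMIs went from 4.87 to 0.797 CPM. Spc25 was 58.8 CPM in endocrine-like cells against 2.14 in macrophages, with a UMI in 20 of 42 endocrine-like cells. Of the 4 multi-gene cells that were neither macrophages nor dendritic cell-like, 1 was a C1q-low cell of a C1q-high cluster with 6 UMIs of Adgre1, and 1 in the endothelial-like cluster held 19 UMIs of Kit. Ptpre, chosen after its place was seen, is the gene on the other strand whose annotated end lies 3489 bases from that of Mki67 on chromosome 7 in GRCm38.p6; it stood at 174 CPM in few-gene macrophages and 156 CPM in those under 5 UMIs.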
